A study of Mus musculus with 4 samples.

Results

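Isg15, Ifit1, Ifit2, Ifit3, Oasl2, Irf7, Usp18, Zbp1 and Gbp2 are interferon-stimulated genes, named as a list of 9 symbols and found as 9 of the 30284 genes to which the deposited transcript counts could be assigned. They were measured by RNA sequencing in small intestinal organoids, which are epithelial cultures grown from crypts in Matrigel. Crypts were taken from 2 mice, both C57BL/6J males with an age label of 9 weeks. Cultures of each mouse received 2 µM GW3965, a compound made to activate liver X receptors (LXRs), or the vehicle DMSO in the medium, and were collected after 6 h. Each treatment therefore had 2 libraries, GW3965 from mouse 1 and mouse 2 and DMSO from the same mice, and the comparison addressed how LXR activation altered transcript levels in crypt cultures. The labels name no genetic alteration in either group and no added interferon. The age label is worded for a colitis experiment and the extraction text speaks of colon, whereas the tissue label gives small intestine organoids.

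Interferon-stimulated genes are switched on when interferons bind their receptors. Type I interferons (IFN-α and IFN-β) and type III interferons (IFN-λ) act through the kinases JAK1 and TYK2 and a transcription factor complex that contains STAT2 and IRF9 and binds the interferon-stimulated response element (ISRE) in promoters. The type II interferon IFN-γ acts mainly on promoters with the gamma-activated site (GAS). Intestinal epithelium is a main target of type III interferons. LXRs are nuclear receptors for oxysterols that bind a repeated hexamer known as DR4 and induce genes of cholesterol export and lipid synthesis.

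The 9 genes lie on 7 chromosomes of the GRCm38 assembly in the GENCODE M21 annotation. Ifit2 (chr19:34550694-34576419), Ifit3 (chr19:34583531-34588731) and Ifit1 (chr19:34640871-34650009) form a cluster on the plus strand. Isg15 (chr4:156199424-156200818), Irf7 (chr7:141262706-141266481) and Zbp1 (chr2:173206612-173218923) are on the minus strand. Oasl2 (chr5:114896936-114912234), Usp18 (chr6:121245906-121270917) and Gbp2 (chr3:142620602-142638008) are on the plus strand. Irf7 overlaps Phrf1 on the other strand by 45 bases, Usp18 overlaps Gm44148 there by 15715 bases, and Gbp2 overlaps Mir6381 by 87 bases. The sources used here do not say whether counting used strand, and reads of these overlaps may be shared.

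RefSeq promoter windows on GRCm38.p6 covered 7 of the 9 genes, and the 250 bases before the start were searched on both strands. The ISRE core was searched as GAAA, any 2 bases and GAAA, or its complement TTTC, any 2 bases and TTTC. GAS was searched as TTC, any 3 bases and GAA, and DR4 as AGGTCA, any 4 bases and AGGTCA or its complement. The ISRE core was found in 4 of the 7 genes, Isg15, Ifit1, Ifit3 and Gbp2, against 3.46% of all 27025 genes with a window. In Gbp2 it lay 59 bases before the RefSeq start, within an exon of the GENCODE annotation. GAS was found in Ifit2, 241 bases before the start, against 8.13% of all genes. DR4 was found in none of the 7, against 0.0148% of all genes. It was also found in 0 of the 3 genes with a window among the LXR targets Abca1, Abcg1, Srebf1 and Mylip. This search therefore cannot tell the members from LXR targets. The following stretches show the ISRE matches that mark Isg15, Ifit1 and Ifit3. Oasl2 is shown as a gene without a match and with the highest level of the 9 genes when all transcripts are summed. Each stretch is written 5′ to 3′ in the direction of the gene, with the ISRE matches in capitals, which in Isg15 are 3 overlapping matches.
Isg15, chr4:156200819-156200998, minus strand: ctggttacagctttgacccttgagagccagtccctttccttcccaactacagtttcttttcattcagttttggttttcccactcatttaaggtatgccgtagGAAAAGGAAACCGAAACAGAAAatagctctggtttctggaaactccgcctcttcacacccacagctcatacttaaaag
Ifit1, chr19:34640744-34640870, plus strand: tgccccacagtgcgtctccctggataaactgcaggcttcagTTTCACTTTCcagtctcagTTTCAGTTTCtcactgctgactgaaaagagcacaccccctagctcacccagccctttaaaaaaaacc
Ifit3, chr19:34583349-34583528, plus strand: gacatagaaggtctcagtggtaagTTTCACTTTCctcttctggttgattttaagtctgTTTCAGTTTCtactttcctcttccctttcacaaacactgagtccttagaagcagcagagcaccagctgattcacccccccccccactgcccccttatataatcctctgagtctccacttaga
Oasl2, chr5:114896754-114896933, plus strand: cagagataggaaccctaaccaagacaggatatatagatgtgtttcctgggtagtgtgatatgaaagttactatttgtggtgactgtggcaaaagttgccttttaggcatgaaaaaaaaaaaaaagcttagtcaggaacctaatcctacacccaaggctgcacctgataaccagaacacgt

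The 4 libraries held 16572359 (GW3965, mouse 1) to 19486547 (GW3965, mouse 2) estimated counts. Mitochondrial transcripts made up 14.0% of gene counts in GW3965 mouse 1 and 8.74% in GW3965 mouse 2, against 7.60% in DMSO mouse 1 and 9.43% in DMSO mouse 2. Markers of T cells and intraepithelial lymphocytes (8 of 9 listed genes were found and all 8 had counts) also stood highest in GW3965 mouse 1. Their summed levels in normalised CPM, which are counts scaled to library sizes adjusted by edgeR's TMM method, were 181.9 and 66.9 with GW3965, against 88.8 and 84.5 with DMSO. Epithelial markers (7 of 7) summed to 22250 and 31540 CPM with GW3965, against 29710 and 30170 CPM with DMSO. The LXR target Abca1, a cholesterol exporter, had 702 and 1152 counts with GW3965, against 9 and 33 with DMSO. In edgeR's quasi-likelihood test, with p-values adjusted by Benjamini-Hochberg over 13602 genes, 8 genes passed an adjusted p of 0.05, all higher with GW3965, and 48 passed with the mouse as a block.

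None of the 9 interferon-stimulated genes passed the test, against 0.0588% of all genes tested. Each of the 9 had an adjusted p of 1.00, none had an unadjusted p under 0.05 (1.05% of all genes), and none was called by DESeq2, limma-voom or edgeR's likelihood ratio test. Fitted log2 fold changes of GW3965 over DMSO were positive for 5 genes and negative for 4, between -0.15 for Oasl2 and 0.54 for Zbp1. Their median was 0.03, beside 0.00 over all genes tested. All 9 passed the filter on low counts, with 13 to 494 counts in a library, which corresponds to a counting SD of 27.7% at the lowest and 4.5% at the highest. The difference was positive in both mice for 2 of the 9 genes and negative in both for 1, against 16.4% and 17.1% of all genes tested. In mouse 1, 7 of the 9 differences were positive, with a median of 0.15 on the log2 scale, where 6798 of all 13602 genes were positive. In mouse 2, 3 of the 9 were positive, with a median of -0.22, where 6703 of all genes were positive.

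**Figure D1:**
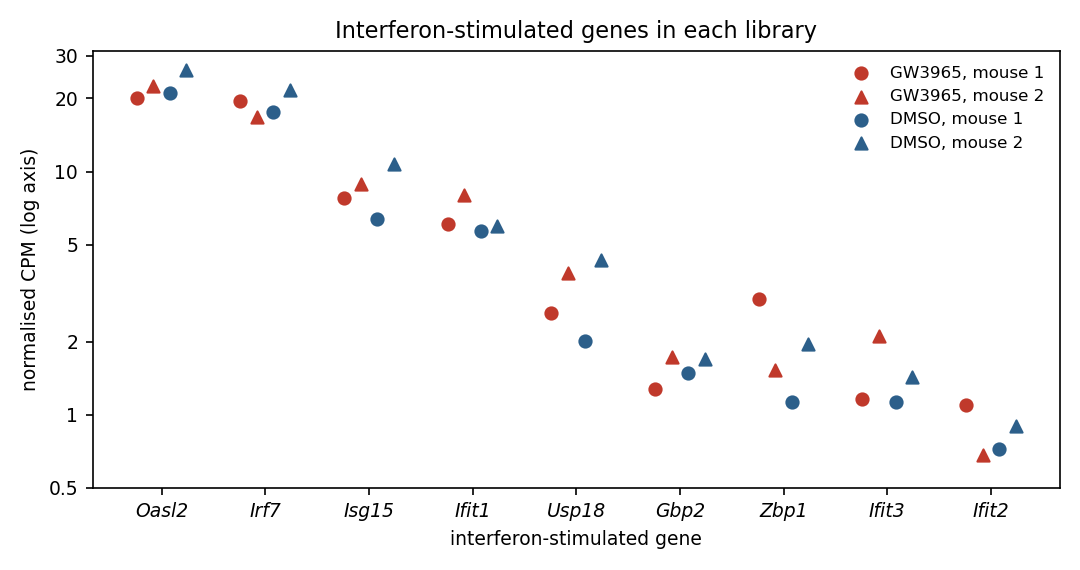
Normalised CPM (log axis) of the 9 interferon-stimulated genes in each library, GW3965 left of DMSO, with mouse 1 and mouse 2 as separate points. Only for Ifit1 do both GW3965 points (6.09 and 8.03 CPM) lie above both DMSO points (5.70 and 5.99 CPM).

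On the TPM scale, which corrects for transcript length and allows levels to be compared between genes, the genes fell into a higher set of 3 and a lower set of 6. Oasl2 averaged 16.8 TPM over the 4 libraries, Isg15 15.03 TPM and Irf7 14.3 TPM, and the ranges of these 3 over libraries overlapped. About 60% of the tested genes had a lower mean TPM than each of them, namely 62.4% for Oasl2, 60.1% for Isg15 and 59.0% for Irf7. These levels sum all transcripts of a gene, coding or not. In Oasl2 a transcript annotated for nonsense-mediated decay held 6.62 to 8.67 TPM in a library, whereas the only listed transcript of Isg15 was protein-coding. Ifit1 averaged 2.68 TPM, Zbp1 2.24 TPM and Usp18 2.07 TPM, again with overlapping ranges, and all libraries lay below the lowest value of Irf7, 13.1 TPM. Ifit3 averaged 0.95 TPM and Gbp2 0.70 TPM, with ranges that overlapped each other. Ifit3 reached 1.44 TPM in GW3965 mouse 2, above the lowest value of Usp18, 1.37 TPM in DMSO mouse 1. Ifit2 was lowest at 0.24 TPM, and its highest library, 0.28 TPM, was below the lowest library of Gbp2, 0.50 TPM. Only 2.23% of tested genes had a lower mean TPM than Ifit2.

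Among the genes of the ISG15 system, neither the modifier nor its protease differed between treatments by more than the spread between mice. Isg15 encodes a ubiquitin-like protein that is joined to other proteins. It had 7.80 CPM in mouse 1 and 8.92 CPM in mouse 2 with GW3965, against 6.37 CPM in mouse 1 and 10.7 CPM in mouse 2 with DMSO. Both GW3965 values lay between the DMSO values, and the fitted log2 fold change was -0.03 ± 0.29 (SE; 95% interval -0.68 to 0.62). Usp18 encodes the protease that removes ISG15 and also restrains signalling at the type I interferon receptor. Its values were 2.62 and 3.83 CPM with GW3965, against 2.00 and 4.35 CPM with DMSO. They followed the same order over the libraries as those of Isg15, lowest in DMSO mouse 1 and highest in DMSO mouse 2, with a log2 fold change of 0.03 ± 0.42 (SE; 95% interval -0.91 to 0.97). The enzymes that attach ISG15 did not pass the test either. Uba7, the activating enzyme, had a log2 fold change of 0.26 ± 0.26, Ube2l6, the conjugating enzyme, one of -0.02 ± 0.23, and Herc6, the main mouse ligase, one of 0.24 ± 0.34 (SE).

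The 3 Ifit genes encode proteins with tetratricopeptide repeats that bind viral RNA or one another. Ifit1, which recognises the 5′ end of foreign mRNA, had 6.09 and 8.03 CPM with GW3965, against 5.70 and 5.99 CPM with DMSO. It was the sole gene of the 9 with both GW3965 libraries above both DMSO libraries, a pattern shown by 9.28% of all genes tested. Its log2 fold change was 0.27 ± 0.27 (SE; 95% interval -0.32 to 0.87), with 0.10 in mouse 1 and 0.42 in mouse 2. Ifit3 had 1.16 and 2.10 CPM with GW3965, against 1.13 and 1.43 CPM with DMSO. The GW3965 value of mouse 2 stood above the other libraries and the GW3965 value of mouse 1 lay within the DMSO range. The log2 fold change was 0.35 ± 0.46 (SE; 95% interval -0.67 to 1.37). Ifit2 had 1.10 and 0.68 CPM with GW3965, against 0.72 and 0.90 CPM with DMSO, which is 18 and 13 counts against 14 and 17. The GW3965 libraries were the highest and the lowest of the 4, and the interval of the log2 fold change, -1.02 to 1.27 around 0.12, was the widest of the 9 genes. Ifit1 and Ifit3 were the 2 members positive in both mice.

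Reads of the Ifit genes are in part shared with near-identical copies. Of the 31-base words in Ifit3 transcripts, 61.8% also occur in other genes, mainly its paralog Ifit3b, so the split between these genes is uncertain. Ifit3b itself had 0.37 and 0.47 CPM with GW3965, against 0.82 and 0.69 CPM with DMSO. This order was opposite to that of the fitted value of Ifit3, with a log2 fold change of -0.83 ± 0.56 (SE). With the counts of Ifit3 and its paralog summed, the log2 fold change was 0.015, beside 0.35 for Ifit3 alone. Ifit1 shares 10.2% of its words with other genes, most with Ifit1bl2, which had 20 and 86 counts with GW3965 and 65 and 22 counts with DMSO. It also shares 5.23% with Ifit1bl1, which had more counts than Ifit1, 413 and 325 with GW3965 and 360 and 325 with DMSO. Isg15 shares 2.89% and Gbp2 4.85%, and the remaining members share under 1%.

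**Figure D2:**
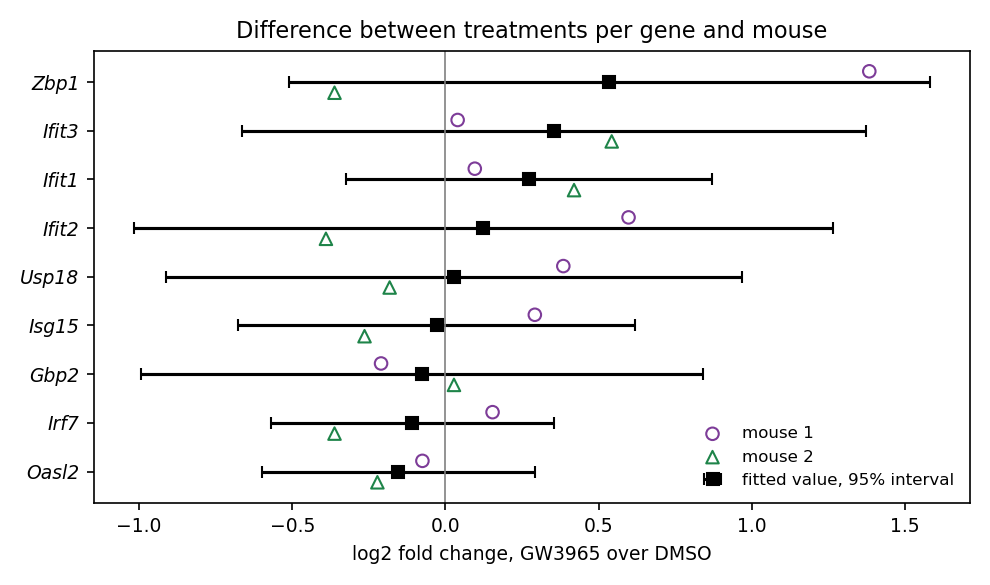
Log2 fold change of GW3965 over DMSO for each of the 9 genes, with the fitted value and its 95% interval (squares and bars) and the difference within mouse 1 (circles) and mouse 2 (triangles). Every interval includes 0, and the gap between mice is widest for Zbp1 at 1.38 and -0.36.

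Oasl2 and Irf7, which act in RNA sensing and in interferon induction, were detected with the most counts and had the narrowest intervals. Oasl2 encodes a protein of the oligoadenylate synthetase family. It had 20.0 and 22.4 CPM with GW3965, against 21.1 and 26.2 CPM with DMSO. In each mouse the GW3965 library was the lower, with log2 differences of -0.08 in mouse 1 and -0.22 in mouse 2, and Oasl2 was the only member negative in both mice. The ranges of the treatments overlapped, and the log2 fold change was -0.15 ± 0.20 (SE; 95% interval -0.60 to 0.29). Irf7 encodes the transcription factor that amplifies type I interferon production. It had 19.5 and 16.8 CPM with GW3965, against 17.5 and 21.6 CPM with DMSO. The GW3965 library was higher in mouse 1 and lower in mouse 2, and the log2 fold change was -0.11 ± 0.21 (SE; 95% interval -0.57 to 0.35).

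The counts of Irf7 were spread over transcript classes in a way that differed more between libraries than the gene total did. Of its 11 listed transcripts, 10 had counts. Protein-coding transcripts held 31.9% of Irf7 counts in GW3965 mouse 1 and 61.3% in GW3965 mouse 2, against 78.6% in DMSO mouse 1 and 29.7% in DMSO mouse 2. Nearly all the rest was assigned to retained-intron transcripts, 68.1% and 37.5% with GW3965, against 21.4% and 69.5% with DMSO. The coding share was higher with GW3965 in mouse 2 and higher with DMSO in mouse 1. The Wilson 95% intervals of the coding share were 27.0% to 37.2% and 55.8% to 66.4% with GW3965, against 73.9% to 82.6% and 25.5% to 34.3% with DMSO. These intervals cover counting error only and not the assignment of 50-base reads among overlapping transcripts. The authors' deposited table of log2 CPM, which holds Irf7 but none of the other 8 genes, gave 3.03 and 3.65 with GW3965, against 3.62 and 2.87 with DMSO. Log2 CPM from all Irf7 transcripts summed was 4.29 and 4.05 with GW3965, against 4.18 and 4.41 with DMSO. The difference between treatments in each mouse thus had the opposite sign in the authors' deposited table, -0.59 in mouse 1 and 0.79 in mouse 2, from that of the summed counts, 0.11 and -0.36. Such a gap was rare among the 8451 symbols found in both. The SD over libraries of the gap between deposited and summed values was 0.55 for Irf7, beside a median of 0.127. For 99.47% of these symbols it was smaller than for Irf7. The sources used here do not say how the deposited table joined transcripts into genes.

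In Oasl2 the split was more even between libraries. A transcript class annotated for nonsense-mediated decay held 66.6% and 57.7% of its counts with GW3965, against 61.6% and 59.5% with DMSO. Protein-coding transcripts held 20.1% and 34.1% with GW3965, against 26.3% and 30.8% with DMSO. The lowest coding share was in GW3965 mouse 1, and the treatments overlapped. For Zbp1, 87.8% and 93.1% of counts were coding with GW3965, against 90.9% and 100% with DMSO. Isg15, Ifit1, Ifit3 and Usp18 each had a single listed transcript.

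**Figure D3:**
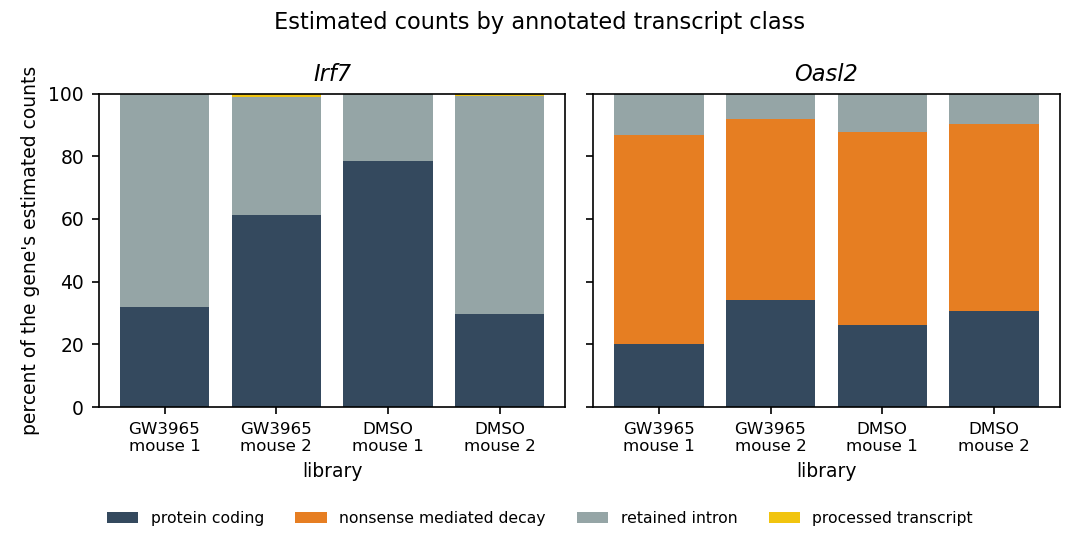
Percent of the estimated counts of Irf7 and Oasl2 assigned to each annotated transcript class (stacked bars) in the 4 libraries, GW3965 left of DMSO. The protein-coding share of Irf7 is highest in DMSO mouse 1 (78.6%) and lowest in DMSO mouse 2 (29.7%).

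Zbp1 and Gbp2 act inside infected cells, Zbp1 as a sensor of Z-form nucleic acid that can start necroptosis through RIPK3, and Gbp2 as a GTPase that coats pathogen vacuoles. Zbp1 had 2.99 and 1.52 CPM with GW3965, against 1.13 and 1.96 CPM with DMSO, which is 49 and 29 counts against 22 and 37. GW3965 mouse 1 was the highest library and DMSO mouse 1 the lowest, with both libraries of mouse 2 between them. GW3965 minus DMSO came to 1.38 in mouse 1 and to -0.36 in mouse 2 on the log2 scale, and the fitted log2 fold change was 0.54 ± 0.47 (SE; 95% interval -0.51 to 1.58). Without GW3965 mouse 1 the fitted value was -0.02. The T cell and intraepithelial lymphocyte markers, including the pan-leukocyte gene Ptprc, were highest in the same library. Ptprc had 21.9 and 11.5 CPM with GW3965, against 10.7 and 12.7 CPM with DMSO. In these bulk libraries more cells of a type and more RNA per cell cannot be told apart, and the part of the lymphocyte markers in the Zbp1 values was not tested. Gbp2 had 1.28 and 1.73 CPM with GW3965, against 1.49 and 1.697 CPM with DMSO. The GW3965 libraries were the lowest and the highest of the 4, and the log2 fold change was -0.08 ± 0.41 (SE; 95% interval -0.995 to 0.84).

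**Figure D4:**
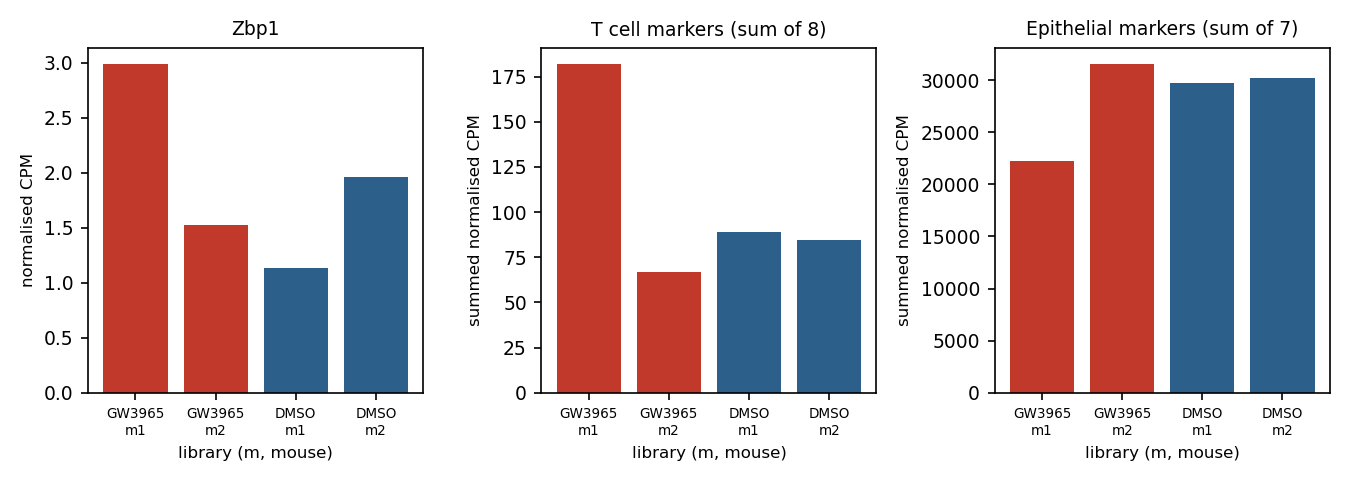
Normalised CPM of Zbp1, of 8 summed markers of T cells and intraepithelial lymphocytes and of 7 summed epithelial markers (bars) in each library, GW3965 left of DMSO. In GW3965 mouse 1, Zbp1 (2.99 CPM) and the lymphocyte markers (181.9 CPM) are at their highest and the epithelial markers (22250 CPM) at their lowest.

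The 9 genes were also compared between the cultures of the mice, with treatment in the same model. Both mouse 2 libraries lay above both mouse 1 libraries for Isg15, Ifit3, Oasl2, Usp18 and Gbp2, which is 5 of 9 genes, against 21% of all genes tested. None showed the reverse order, against 20.2% of all genes. The median log2 fold change of mouse 2 over mouse 1 was 0.24 over the 9 genes and 0.00 over all genes. Other lists moved between mice too. Epithelial markers had 5 of 7 genes in this order, with a median of 0.30, and interferon receptor genes 5 of 6, with a median of 0.27. The median was 0.54 over 5 B and plasma cell markers and -0.46 over 8 markers of T cells and intraepithelial lymphocytes. The part of these markers in the values of the 9 genes was not tested. Usp18 averaged 4.09 CPM in mouse 2 and 2.31 CPM in mouse 1, a log2 fold change of 0.83 ± 0.39 (SE). It was the only member with an unadjusted p under 0.05 (0.0334, beside 2.23% of all genes in this direction and 5.01% in either), and its adjusted p was 0.936 by edgeR's quasi-likelihood test. Isg15 averaged 9.81 CPM in mouse 2 and 7.08 CPM in mouse 1, a log2 fold change of 0.47 ± 0.28 (SE). No member was called between mice by edgeR's quasi-likelihood test or DESeq2, where 0.684% of all genes were called by edgeR. With 1 animal per level, this contrast describes the cultures of these mice. Its fit, with treatment and mouse in the model, had 1 residual degree of freedom.

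The wider interferon pathway was examined from the ligands downwards, in lists of its known genes. None of the 11 listed ligand genes passed the filter on low counts, and other interferon genes were not examined. Of the 11, 3 had any count, and none had more than 1 count in a library. Ifnk, encoding IFN-κ, had 1 and 1 counts with GW3965 and 0 and 0 with DMSO. Ifnl2, encoding an IFN-λ, had 1 and 0 with GW3965 and 0 and 1 with DMSO, and Ifng, encoding IFN-γ, had 0 and 1 with GW3965 and 0 and 0 with DMSO. A count of 0 allows up to 3 counts, or 0.154 to 0.183 CPM in these libraries. Where a listed ligand gene had a count of 0, its transcripts were thus not detectable above that level.

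The receptors were present without a called difference. All 6 receptor genes were tested and none passed, with log2 fold changes between -0.12 and 0.12 and a median of 0.01. The receptor of type I interferons, Ifnar1 and Ifnar2, had 35.5 and 45.5 CPM and 7.25 and 9.86 CPM with GW3965, against 37.2 and 45.6 CPM and 8.27 and 8.27 CPM with DMSO. Ifnlr1, the specific chain of the type III receptor, had 41.2 and 42.7 CPM with GW3965, against 31.5 and 45.8 CPM with DMSO. Its partner Il10rb had a log2 fold change of -0.12 ± 0.18 (SE). Ifngr1, the ligand-binding chain for IFN-γ, was the receptor gene with the highest level per length, at 120.8 and 161.0 TPM with GW3965, against 124.6 and 154.0 TPM with DMSO. Ifngr2, its signalling chain, had a log2 fold change of -0.06 ± 0.23 (SE).

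Of the 10 genes for kinases and transcription factors that carry the signal, none passed the test, and 2 were positive and 8 negative, with a median log2 fold change of -0.13. Both GW3965 libraries lay below both DMSO libraries for Irf8, a factor known from myeloid and lymphoid cells, with a log2 fold change of -0.28 ± 0.20 (SE). The same order was found for 9.18% of all genes. Irf8 had 35.8 and 32.8 CPM with GW3965, against 46.4 and 36.6 CPM with DMSO. The listed myeloid markers summed to 7.21 to 11.1 CPM in a library, and B and plasma cell markers to 26.1 to 37.9 CPM. Markers of T cells and intraepithelial lymphocytes summed to 66.9 to 181.9 CPM. Such sums do not bound the Irf8 transcripts of these cells, and the cell source of Irf8 was not tested. Stat2 had a log2 fold change of -0.15 ± 0.22 and Irf9, its DNA-binding partner, one of 0.07 ± 0.19 (SE). Irf1, an activator induced by IFN-γ, had a log2 fold change of -0.08 ± 0.21, and Irf2, which competes with it, one of -0.16 ± 0.23 (SE).

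Among 14 genes that sense nucleic acid or relay that signal, 0 passed the adjusted threshold, and 7 were positive and 7 negative with a median of 0.03. Irf3 was the only gene of the interferon pathway lists with an unadjusted p under 0.05, a threshold passed by 1.05% of all genes tested. It encodes the factor that starts interferon transcription after sensing. Irf3 had 9.32 and 12.6 CPM with GW3965, against 17.3 and 19.7 CPM with DMSO. Both GW3965 libraries were below both DMSO libraries, as for 9.18% of all genes, with log2 differences of -0.89 in mouse 1 and -0.64 in mouse 2. The log2 fold change was -0.75 ± 0.23 (SE; 95% interval -1.26 to -0.24), with an unadjusted p of 0.00812 and an adjusted p of 1.00 by edgeR's quasi-likelihood test. With the mouse as a block, the quasi-likelihood test gave -0.76, an unadjusted p of 0.00206 and an adjusted p of 0.431. That fit estimated the error anew with 1 residual degree of freedom, so its p-values are not on the scale of the main fit. With 1 library left out the log2 fold change ran from -0.99 to -0.55. Irf3 overlaps Bcl2l12 on the other strand by 1065 bases. Ifih1, the cytosolic sensor of long double-stranded RNA, had a log2 fold change of -0.31 ± 0.18, Cgas, the DNA sensor, one of 0.25 ± 0.26, and the kinase gene Ikbke one of 0.18 ± 0.21 (SE).

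Other genes induced by type I and III interferons also showed no called difference. Of 44 listed genes, 41 were tested, 0 passed and none had an unadjusted p under 0.05. The fitted values were positive for 20 and negative for 21, with a median of -0.01 and a range of -0.83 to 0.89. Several stood far above the 9 genes in level per length. Oasl1, a paralog of Oasl2 that represses Irf7 translation in mice, had 54.0 and 100.5 TPM with GW3965, against 64.6 and 77.1 TPM with DMSO. Ifi27l2b had 164.9 and 234.1 TPM with GW3965, against 191.8 and 223.7 TPM with DMSO. At both ends of the list were genes of few counts. Ifitm1, which blocks viral entry, had 1.34 and 1.10 CPM with GW3965, against 0.31 and 1.01 CPM with DMSO, a log2 fold change of 0.89 ± 0.59 (SE), which was 0.27 without DMSO mouse 1 and 1.95 without DMSO mouse 2. Isg20, an exonuclease, had a log2 fold change of -0.24 ± 0.21, and Dtx3l, a ubiquitin ligase that partners Parp9, one of -0.29 ± 0.20 (SE).

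In the list of other guanylate-binding proteins and IFN-γ-type genes, 26 of 27 symbols were found, 19 genes were tested and 0 passed at either threshold. Values were positive for 10 and negative for 9, with a median of 0.04. Gbp7 had 4.45 and 2.68 CPM with GW3965, against 2.26 and 2.12 CPM with DMSO. It was higher with GW3965 in both mice, with a log2 fold change of 0.69 ± 0.37 (SE) and an unadjusted p of 0.0933 by edgeR's quasi-likelihood test. Tgtp2, an immunity-related GTPase, had 2.44 and 0.89 CPM with GW3965, against 1.13 and 0.48 CPM with DMSO, a log2 fold change of 1.03 ± 0.61 (SE). With 1 library left out this was lowest, at 0.14, without GW3965 mouse 1 and highest, at 1.78, without DMSO mouse 1. Tgtp2 had 40 and 17 counts with GW3965, against 22 and 9 with DMSO. Tgtp1, in the same list but not tested, had 0 and 5 counts with GW3965, against 0 and 16 with DMSO. In mouse 2 the treatments thus stood in opposite order for Tgtp1 and Tgtp2. Whether these genes share reads was not tested, so the value of Tgtp2 may depend on how reads were assigned. Gbp4 had a log2 fold change of 0.49 ± 0.55, and Nlrc5, the activator of MHC class I genes, one of 0.42 ± 0.38 (SE). For Gbp4, Gbp7, Tgtp2 and Nlrc5, which were named for their small p, the highest library was GW3965 mouse 1, as for Zbp1. The same held for Gbp8, Gbp9, Igtp, Psmb8 and Psmb9. Other tested genes of the list were highest elsewhere. Gbp3, Irgm1, Irgm2, Cxcl11, Psmb10 and Tap2 were highest in DMSO mouse 1. Cxcl10, Ciita and Socs1 were highest in DMSO mouse 2, and Tap1 in GW3965 mouse 2. The share over all genes was not counted.

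Of 10 genes that act with ZBP1 in cell death or in inflammasomes, 9 were tested and 0 passed at either threshold, with 3 positive and 6 negative values and a median of -0.04. Ripk3, the kinase that ZBP1 binds, was abundant at 238.9 and 396.8 TPM with GW3965, against 345.1 and 367.3 TPM with DMSO. Mlkl, the executioner of necroptosis, had a log2 fold change of -0.15 ± 0.19, and Fadd, an adaptor of death receptors, one of -0.18 ± 0.19 (SE). The inflammasome genes Casp4 and Aim2 had log2 fold changes of 0.17 ± 0.21 and 0.27 ± 0.33 (SE), each positive in mouse 1 and negative in mouse 2.

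**Figure D5:**
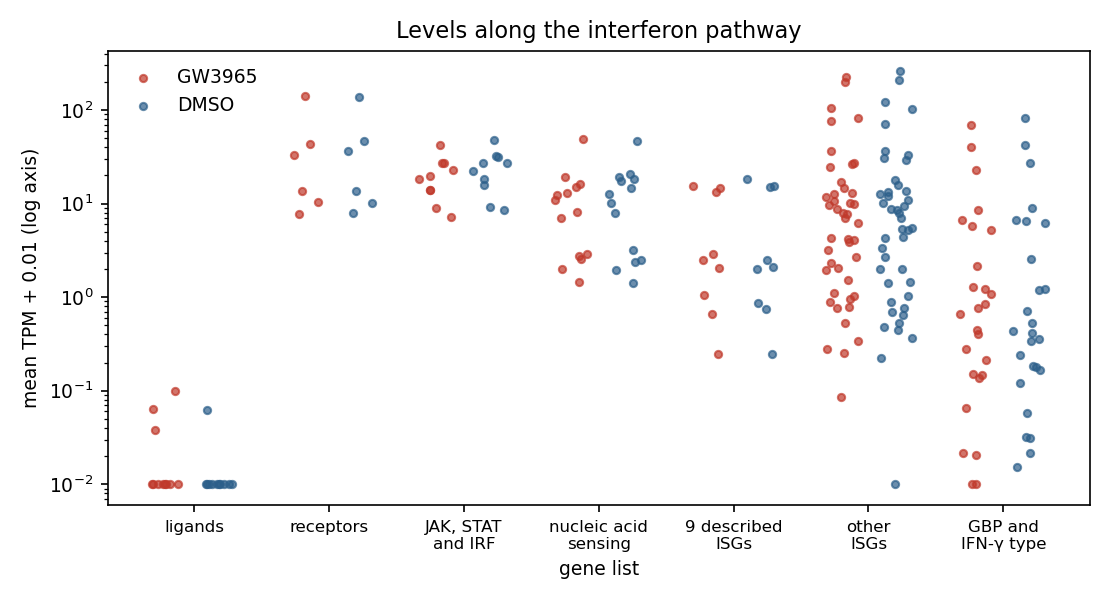
Mean TPM plus 0.01 (log axis) of the genes for interferon ligands, receptors, signal transducers, nucleic acid sensing, the 9 described genes and the lists of other induced genes, with GW3965 points left of DMSO points within each list. The ligand genes lie at or near 0 in both treatments, and the 9 described genes run from 0.24 (Ifit2) to 16.8 TPM (Oasl2) over the 4 libraries.

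The pattern of the 9 genes over the libraries, as the mean of their centred log2 CPM, was 0.01 and 0.09 with GW3965, against -0.28 and 0.18 with DMSO. DMSO mouse 1 was thus the lowest library. The distance of a gene from this mean was taken as the Euclidean distance over the 4 libraries. Single members lay 0.24 (Isg15) to 0.87 (Zbp1) from it. Among 9398 genes outside the lists with enough counts and spread, the nearest were Zfp335 at 0.0237, Depdc7 at 0.0267, Kdm3a at 0.0367, Rc3h2 at 0.0407 and Rimbp2 at 0.0484. Each of these genes lay closer to the mean of the 9 than any of the 9 did. They were picked as the smallest distances among 9398 genes, whereas the 9 were not picked by distance. The comparison therefore cannot show whether the 9 share a pattern.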

How the data were processed

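Small intestinal organoids from 2 mice, each treated with GW3965 and DMSO, were sequenced from stranded poly-A libraries as 50-base single-end reads, per the labels' protocols. The submitters' processing notes name CASAVA 1.7, FastQC, kallisto without a version and mm10. The sources used here give neither the annotation nor the use of strand. The authors deposited estimated counts and TPM per transcript for each library, as well as a rounded count table of the series, and per the file headers a table of log2 CPM for 8524 symbols.

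Of 88198 transcripts, 86119 (97.64%) matched GENCODE M21; the others held 0.685% to 0.854% of counts. Counts and TPM were summed per gene, and counts were rounded. edgeR 4.0.16 in R 4.3.3 was used with filterByExpr, TMM scaling, the quasi-likelihood test and Benjamini-Hochberg adjustment over 13602 genes at 0.05. The main fit had 2 residual degrees of freedom and a prior of 7.78. Fits with the mouse in the model had 1 residual degree of freedom and estimated their own prior. By the quasi-likelihood test, Abca1 had a p of 1.3e-73 with the block and 2.0e-07 without it. The p-values and numbers of calls of these fits therefore rest on different error estimates. Differences within a mouse used a prior count of 0.5. Alternatives used DESeq2 1.42.0, limma 3.58.1 and other settings. Both libraries of a mouse number came from the same animal per the labels, so the numbers pair the samples; the correlation of their deviations was 0.06. No libraries were duplicates: the chi-square per degree of freedom between pairs was 9.99 to 72.9. It was 47.7 to 72.9 for pairs with GW3965 mouse 1 and 9.99 to 20.7 for the other pairs. GW3965 mouse 1 thus differed most from the rest, and it enters every difference within mouse 1. The script was tested on simulated data. The 9 genes and the lists were chosen with earlier results of these data known. Named genes were the 9, all receptors, main transducers, ligands with counts, the paralogs sharing words, and up to 4 genes per list with the smallest p; the levels of Oasl1, Ifi27l2b and Ripk3 were chosen after their values were seen. The values of 1 gene named by this rule are not reported here.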

Additional observations from a re-analysis of the deposited data

How the results depend on the processing

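None of the 9 genes, and no gene of the pathway lists, was called between treatments under any alternative run. The number of all genes called was 8, against 14 without a filter on low counts, 20 with DESeq2, 20 with limma-voom, 29 with edgeR's likelihood ratio test and 48 with the mouse as a replicate block. It was 38 to 84 with 1 library left out (84 without GW3965 mouse 2, 38 without DMSO mouse 1), and between mice it was 93, against 28 with DESeq2. The cause was not tested. The log2 fold change of Isg15 turned to 0.021 with limma-voom and to 0.006 with the replicate block, and that of Gbp2 to 0.47 with paralog counts summed, which also moved Ifit3 to 0.015. The sum for Gbp2 took in all counts of Gbp7, which shares only 0.16% of the 31-base words of Gbp2. Gbp7 had 73 and 51 counts with GW3965, against 44 and 40 with DMSO, more than Gbp2 in every library. The value of 0.47 thus does not measure uncertainty in assigning reads to Gbp2. The block changed no call among the 9 genes. Leaving out 1 library in turn reversed the sign of several values, none of them called. Ranges of the log2 fold change over these fits were Aim2 -0.17 to 0.61, Casp4 -0.065 to 0.44, Cgas -0.042 to 0.49, Gbp2 -0.32 to 0.12, Ifit2 -0.25 to 0.43, Ifit3 -0.15 to 0.71, Ifnar1 -0.22 to 0.14, Ifnar2 -0.19 to 0.25, Ifngr1 -0.10 to 0.19, Ifngr2 -0.39 to 0.21, Ifnlr1 -0.13 to 0.41, Ikbke -0.068 to 0.39, Irf1 -0.34 to 0.14, Irf2 -0.54 to 0.14, Irf7 -0.25 to 0.044, Irf9 -0.063 to 0.19, Isg15 -0.36 to 0.39, Nlrc5 -0.082 to 0.80, Oasl2 -0.30 to 0.004, Stat2 -0.39 to 0.14, Uba7 -0.18 to 0.60, Ube2l6 -0.16 to 0.12, Usp18 -0.43 to 0.68 and Zbp1 -0.021 to 0.98. A lone library in a group was assumed to vary like the others. Ifit2 did not pass a filter at a mean of 1 CPM, and the contrast between mice had no residual degrees of freedom with 1 library left out. Genes such as Ifit2, at 13 to 18 counts, limit what could be detected.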

Other observations

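The ISRE core was also counted in the promoter windows of the wider lists. It was found in 13 of 34 other genes induced by type I and III interferons and in 11 of 16 guanylate-binding protein and IFN-γ-type genes with a window, against 3.46% of 27025 genes. It was found in 5 of 11 ligand genes, 2 of 9 kinase and transcription factor genes and 1 of 12 nucleic acid sensing genes. In the ISG15 system it was found in 1 of 4 genes, which was Isg15, already counted among the 9 genes. It was found in 0 of 5 receptor genes and 0 of 9 partners of ZBP1 or inflammasome genes.

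Markers of other cells were present at low levels and moved with single libraries. Myeloid markers (7 of 7 had counts) summed to 11.1 and 7.92 normalised CPM with GW3965, against 8.27 and 7.21 with DMSO. B and plasma cell markers (5 of 5) summed to 26.3 and 36.5 CPM with GW3965, against 26.1 and 37.9 CPM with DMSO, and were higher in both libraries of mouse 2. Markers of mesenchyme and endothelium (7 of 7) summed to 28.3 and 18.9 CPM with GW3965, against 14.3 and 16.3 CPM with DMSO. Most of that sum was Pecam1, which leukocytes also express, with 25.8 and 17.0 CPM with GW3965, against 13.4 and 14.3 CPM with DMSO. Cdh5, Pdgfra, Dcn, Col1a2 and Col3a1 had 1 to 6 counts in a library. The part of these markers in the values of the interferon-stimulated genes was not tested. The LXR targets Abcg1, a sterol exporter, Srebf1, a regulator of lipid synthesis, and Mylip, a ligase for the LDL receptor, had log2 fold changes of 4.35 ± 0.25, 2.53 ± 0.24 and 2.37 ± 0.36 (SE), with an adjusted p of 0.0766 for Mylip.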
